A study of Mus musculus with 6 samples.

Results

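Mitotic microglia were examined in single-cell RNA sequencing of CD45+ cells, sorted from the tumor-bearing hemisphere of female SCID mice, which lack T and B lymphocytes. The mice were 8 weeks old when U87 cells, an established human glioma line, were implanted in the brain. Of the 6 mice, 3 carried U87 cells that overexpress IL-33 and were taken 3 weeks later, and 3 carried U87 cells with the empty pcDNA vector and were taken 6 weeks later. Barcodes of the deposited matrix mark droplets. The suffix of a barcode, a number from 1 to 6, gives the library, and the sample labels do not name the suffix of a mouse. The paper's supplement lists cell numbers for 3 pcDNA and 3 IL-33 libraries, which equal the barcode counts of suffixes 1 to 6 in order. Groups were taken only from the sample labels, so IL-33-expressing and pcDNA xenografts were not compared here. All barcodes were treated as 1 pooled sample, values per suffix are descriptions, and no test was made.

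A barcode was taken as a mitotic microglia on its measured counts of unique molecular identifiers (UMIs), each of which marks 1 captured transcript. It had over 200 genes, under 5% of its UMIs on mitochondrially encoded genes and over 3% on the microglial genes Cst3, C1qa, C1qb, C1qc, P2ry12 and Tmem119. It also had at least 3 UMIs on 8 mitosis genes (Ccnb2, Cdc20, Cenpa, Hmmr, Top2a, Mki67, Nusap1 and Prc1), and no fewer on these than on 10 replication genes (Mcm2 to Mcm7, Hells, Rrm1, Tipin and Lig1). This gave 237 mitotic barcodes of the 40411 in the matrix, of which 39642 passed the limits on genes and mitochondrial UMIs and 38493 were microglial. They were described against 14174 reference barcodes, which are microglial barcodes of at least 2000 UMIs with none of the 18 cycle genes, and against 1555 replicating barcodes, which had at least 3 UMIs on the replication genes and more on these than on the mitosis genes. Levels are counts-per-million (CPM), the UMIs of a gene scaled to the total UMIs of the group. A ratio divides the UMIs observed in the mitotic barcodes by those expected from the other group at the same mix of suffixes, and 95% intervals are exact and cover counting error only.

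Microglia are the resident macrophages of the brain parenchyma, and they renew themselves by local division. A dividing cell copies its DNA, accumulates cyclin B with the kinase Cdk1, condenses its chromosomes and attaches them to a spindle of microtubules, and then degrades cyclin B and securin through the anaphase-promoting complex before it splits. Genes for these late steps are switched on together between replication and division. Many of their promoters carry a short element called the cell cycle genes homology region (CHR), often beside CCAAT boxes bound by NF-Y, whereas genes for DNA replication often carry E2F sites.

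Promoters of 4 of the mitosis genes of the rule are shown because the matches lie close to the start of transcription, and that of the replication gene Mcm6 is shown for contrast. The sequences are RefSeq windows of GRCm38.p6, written 5′ to 3′ on the strand of the gene, from 150 bases before to 30 bases after the start. Capitals mark CHR letters (TTTGAA or TTCGAA), the CCAAT letters and E2F letters (TTTCCCGC, TTTCGCGC, TTTGCCGC or TTTGGCGC), each searched on both strands. Where E2F matches overlap, they form 1 run of capitals.
Ccnb2 (chr9:70421525-70421704, minus strand): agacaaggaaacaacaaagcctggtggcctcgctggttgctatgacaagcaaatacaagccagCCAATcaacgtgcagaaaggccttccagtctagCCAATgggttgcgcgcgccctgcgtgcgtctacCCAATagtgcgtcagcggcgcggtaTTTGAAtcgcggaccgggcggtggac
Cdc20 (chr4:118437314-118437493, minus strand): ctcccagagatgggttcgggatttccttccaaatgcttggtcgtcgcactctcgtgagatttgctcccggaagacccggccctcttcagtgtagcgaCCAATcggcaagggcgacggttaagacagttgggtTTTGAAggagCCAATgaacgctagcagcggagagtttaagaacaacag
Cenpa (chr5:30666736-30666915, plus strand): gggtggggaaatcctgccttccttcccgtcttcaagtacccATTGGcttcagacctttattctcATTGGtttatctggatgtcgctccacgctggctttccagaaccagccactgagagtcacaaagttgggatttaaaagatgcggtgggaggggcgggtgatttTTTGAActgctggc
Hmmr (chr11:40733408-40733587, minus strand): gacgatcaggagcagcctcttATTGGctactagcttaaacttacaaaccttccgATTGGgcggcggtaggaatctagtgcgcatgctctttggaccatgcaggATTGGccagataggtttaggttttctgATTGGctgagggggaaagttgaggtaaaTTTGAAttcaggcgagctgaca
Mcm6 (chr1:128359676-128359855, minus strand): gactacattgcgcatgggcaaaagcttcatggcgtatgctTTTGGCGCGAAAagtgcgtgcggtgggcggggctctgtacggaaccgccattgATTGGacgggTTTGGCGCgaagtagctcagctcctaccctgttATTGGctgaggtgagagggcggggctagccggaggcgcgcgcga
With the first transcribed base as 1, the CHR letters began at base 5 in Ccnb2 (cyclin B2), base -18 in Cdc20 (an activator of the anaphase-promoting complex), base 17 in Cenpa (the histone H3 variant of centromeres) and base 9 in Hmmr (a spindle protein). CCAAT letters began at bases -87, -54 and -21 in Ccnb2 and at bases -53 and -8 in Cdc20. The Mcm6 window (Mcm6 is a subunit of the replicative helicase) had E2F matches that began at bases -110, -106 and -47, CCAAT letters at bases -57 and -14, and no CHR letters.

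Over windows from 250 bases before to 50 after a start, CHR letters were found in 53 of 72 windows of mitosis genes outside the rule (73.6%, from 68 of 79 genes matched by symbol), against 6316 of 32851 windows of all genes (19.2%). They were found in 8 of 9 windows of the mitosis genes of the rule, in 4 of 24 windows of the replication genes outside the rule (16.7%) and in 4 of 17 windows of microglial identity genes (23.5%). CCAAT letters separated the groups less, with 66.7% of windows of mitosis genes outside the rule, 58.3% of replication genes outside the rule, 64.7% of microglial identity genes and 37.4% of all genes. E2F letters were found in 9.72% of windows of these mitosis genes, 33.3% of these replication genes and 2.26% of all windows. CHR and CCAAT letters stood together in 41 of 72 windows of mitosis genes (56.9%) and in 7.52% of all windows. A match is a description of these letters and not a measured site, and the genes were chosen for their known roles.

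**Figure D1:**
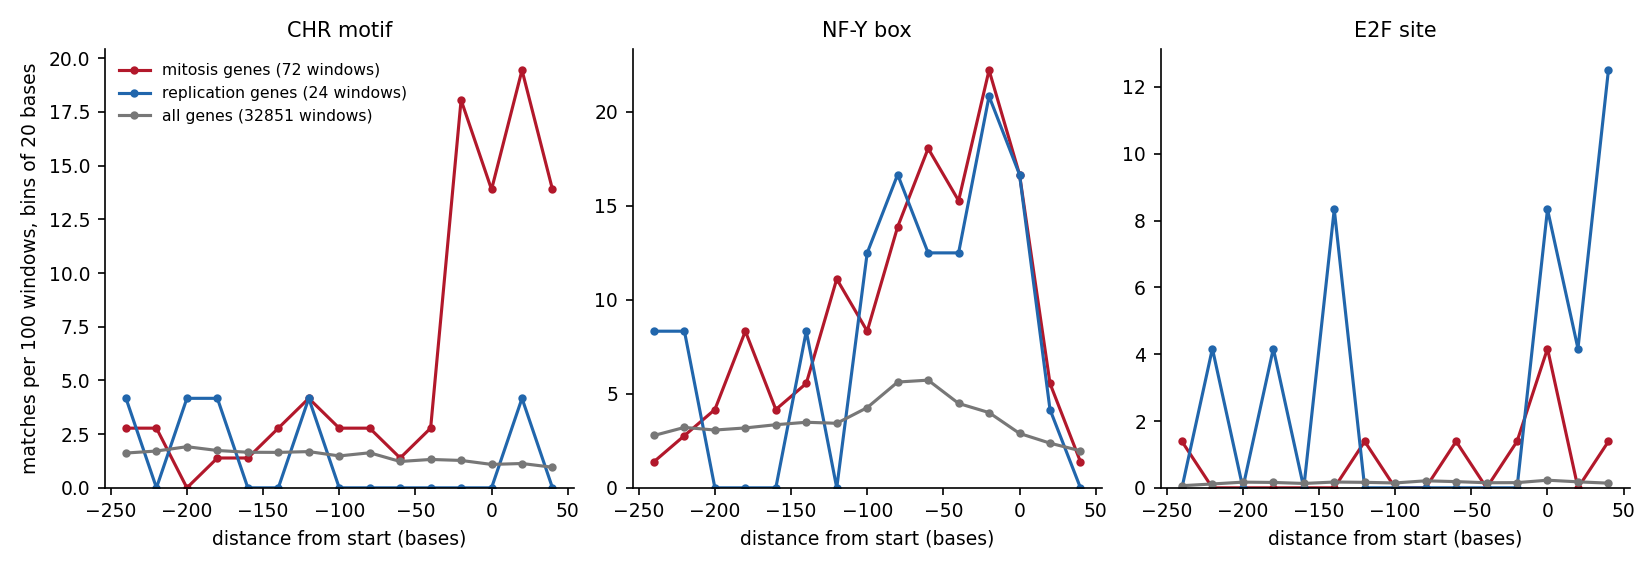
Matches per 100 promoter windows (vertical axes) to CHR letters, CCAAT letters (NF-Y box) and E2F letters, by distance in bases from the start of transcription in bins of 20 bases, for 72 windows of mitosis genes outside the rule, 24 of replication genes outside the rule and 32851 of all genes. From 30 bases before to 50 bases after the start, mitosis genes had between 13.9 and 19.4 CHR matches per 100 windows in each bin, against 0.959 to 1.28 for all genes.

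The libraries were not independent in their barcodes. Among 29579 barcode sequences, 3890 occurred with 2 or more suffixes and 490 with all 6, and pairs of suffixes had between 509 and 3428 sequences in common. In all, 14722 barcodes (36.4%) carried a shared sequence, and these were shallow, with a median of 929 UMIs against 3137 in the others. The UMIs of the 490 sequences found in all 6 suffixes were split between suffixes 1 to 6 in nearly the same proportions each time, with medians of 19.2%, 25.4%, 7.36%, 14.3%, 21.0% and 12.8%. Of the mitotic barcodes 42 (17.7%) carried a shared sequence, against 7.04% of the reference and 4.57% of the replicating barcodes. There were 214 distinct sequences among the 237 mitotic barcodes, and 9 sequences were mitotic in more than 1 suffix. For example, 1 sequence had 1716, 2187, 610, 1247, 1722 and 1048 UMIs in suffixes 1 to 6, with 7, 3, 3, 4, 5 and 0 of them on the mitosis genes, and counted as a mitotic barcode in 5 suffixes. These sequences may stand for fewer cells than barcodes, which was not tested. Results are therefore given also without the shared barcodes, which leaves 195 mitotic barcodes.

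The mitotic barcodes were deep. Their median was 3837 UMIs (range 570 to 17176), against 4141 in replicating and 3179 in reference barcodes, the latter with a set minimum of 2000. After each barcode was thinned to 2000 UMIs, 192 mitotic barcodes had a median of 1059 genes, against 997 in replicating and 940 in reference barcodes. Barcodes with over 2500 genes can hold 2 cells, and 36 mitotic barcodes were above this limit. No doublet caller was run, and without these barcodes 201 remained. Mitochondrially encoded genes took a median of 1.88% of UMIs in mitotic, 1.36% in replicating and 1.24% in reference barcodes.

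The genes that chose the barcodes are given as a description. Mitotic barcodes had a median of 7 UMIs on the 8 mitosis genes (highest 50) and UMIs on a median of 4 of these genes, and 8 barcodes had UMIs on all 8. Cenpa was seen in 71.3% of them, Ccnb2 in 60.3%, Top2a (a topoisomerase that untangles sister chromatids) in 55.7%, Mki67 (a coat protein of mitotic chromosomes) in 53.6%, Cdc20 in 50.2% and Hmmr in 44.7%. Nusap1 (which binds spindle microtubules) and Prc1 (which bundles them between separating chromosomes) were each seen in 41.4%. All 5 of Ccnb2, Cdc20, Cenpa, Hmmr and Top2a were seen in mitotic barcodes of each suffix. Just outside the limits lay 67 microglial barcodes with 2 mitosis UMIs, and just inside 41 with 3 and 35 with 4. In 11 mitotic barcodes the mitosis and replication genes had equal UMIs, and in 9 further barcodes replication was ahead by 1 UMI. On the microglial limit, 19 mitotic barcodes had 3 to 4% of UMIs on the microglial genes, and 11 barcodes met the mitosis rule with 2 to 3%.

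Free RNA can give UMIs in droplets whose cell does not express a gene, and barcodes of another cell type serve as a measure of it. Of 174 barcodes with the profile of choroid plexus, 2 had a UMI on the mitosis genes (1.15%, 95% interval 0.140 to 4.09%, median depth 1070.5 UMIs), none had more than 1, and none met the mitosis rule. Of the microglial barcodes 1442 had at least 1 such UMI (3.75%, 3.56 to 3.94%, median depth 2483 UMIs), which lies within the interval of the shallower choroid plexus barcodes. Among 1149 barcodes past the limits that were not microglial, 20 met the mitosis rule (1.74%, 1.07 to 2.68%). When barcodes were chosen on a random part of their UMIs and measured on the rest, 150 were mitotic, and the ratio to the reference in the held-out UMIs was 242 for Top2a, 154 for Ccnb2, 134 for Cdc20 and 59.4 for Cenpa.

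Mitotic barcodes made up 0.616% of microglial barcodes (0.540 to 0.699%), and the share differed between suffixes. Suffixes 1 to 6 held 29, 31, 7, 74, 45 and 51 mitotic barcodes, which is 0.380%, 0.311%, 0.251%, 1.25%, 0.703% and 0.886% of their microglial barcodes. Suffix 4 was the highest and suffix 3, with the fewest barcodes, the lowest. The intervals of suffix 4 (0.981 to 1.56%) and of suffix 1 (0.254 to 0.545%) did not overlap. After thinning to 2000 UMIs per barcode their intervals, 0.722 to 1.41% and 0.331 to 0.797%, did overlap. The thinned interval of suffix 4 still did not overlap those of suffix 2 (0.176 to 0.469%) and suffix 3 (0.00117 to 0.257%). Nor did those of suffix 5 (0.493 to 1.21%) and suffix 6 (0.507 to 1.08%) overlap with suffixes 2 and 3. Depth differed too, with medians of 2429, 2321, 3503, 2491, 1536 and 3017 UMIs per barcode in suffixes 1 to 6. After thinning to 2000 UMIs the shares were 0.527%, 0.297%, 0.0462%, 1.02%, 0.795% and 0.757%, with the same suffixes highest and lowest, and 128 of 22479 barcodes (0.569%) met the rule. Without shared barcodes the shares were 0.521%, 0.374%, 0.226%, 1.55%, 1.07% and 1.11%, again highest in suffix 4 and lowest in suffix 3, and 195 of 24231 barcodes (0.805%) were mitotic. For each 100 replicating barcodes there were 18.7, 10.0, 7.87, 15.1, 23.0 and 16.1 mitotic ones, so that the ranking by this measure was a different one. Why suffixes differ was not tested, and they were not assigned to the xenograft groups here. By the cell numbers of the paper's supplement, suffixes 1 to 3 would be pcDNA and suffixes 4 to 6 IL-33 xenografts.

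The share also differed with depth, and the cause was not tested. It was 0.113% of barcodes with 500 to 1000 UMIs (10 of 8820), 0.487% from 1000 to 2000, 0.421% from 2000 to 3000, 0.558% from 3000 to 4000 and 0.900% from 4000 to 5000. It was 3.48% from 5000 to 6000 (37 of 1063) and 2.46% at 6000 or more (46 of 1867). Barcodes above 5000 UMIs had a higher share than all shallower bins, and their intervals did not overlap with those.

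**Figure D2:**
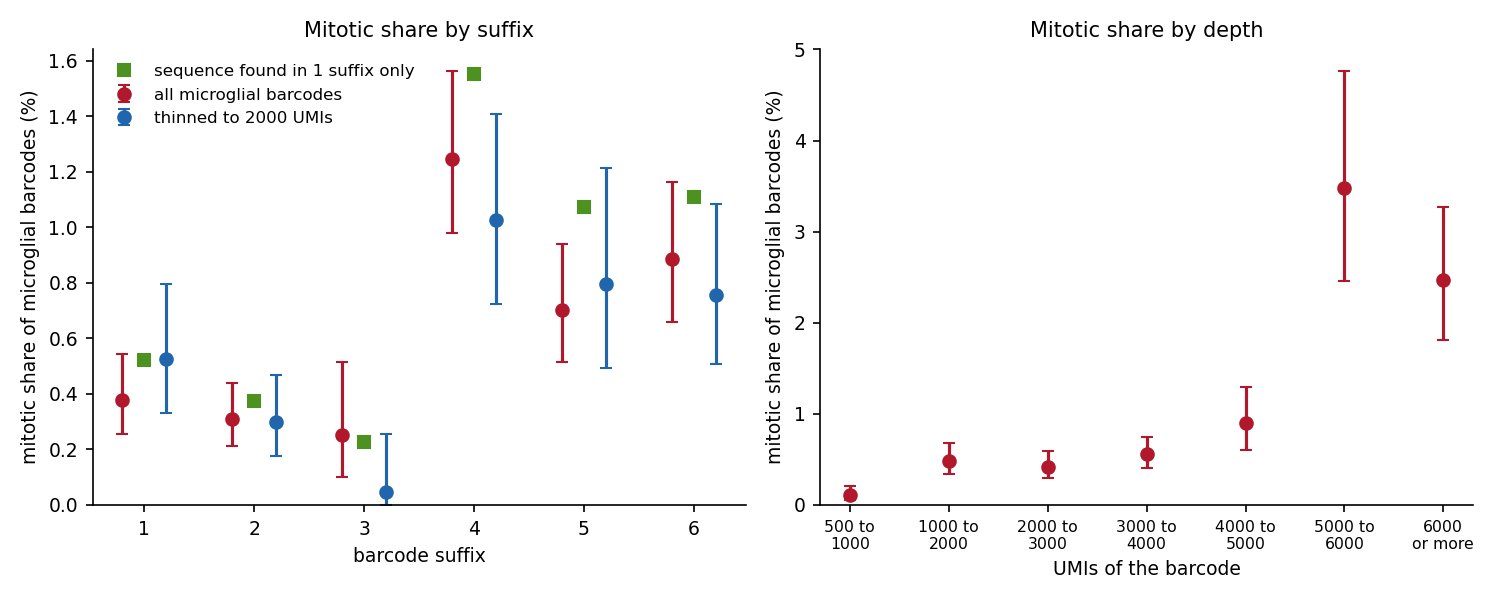
Left, percent of microglial barcodes that were mitotic in suffixes 1 to 6, over all barcodes, after thinning to 2000 UMIs and among barcodes whose sequence occurs in 1 suffix. Right, the percent by UMIs per barcode. Bars are exact 95% binomial intervals for counting error. The share was highest in suffix 4 (1.25%) and in barcodes of 5000 to 6000 UMIs (3.48%).

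Against the reference, genes of cell division were far higher and few genes were lower. Of 6609 genes outside the rule with at least 20 observed or expected UMIs, 629 (9.52%) were at least 2-fold higher and 64 (0.968%) at least 2-fold lower, each in the same direction in all 5 suffixes with 20 or more mitotic barcodes. The median ratio over these genes was 1.14. Without shared barcodes 564 genes were higher (8.93%) and 64 lower (1.01%) of 6319, and of those named above 546 and 52 were kept. Of 79 mitosis genes outside the rule 75 could be compared, and 73 of them were higher, with a median ratio of 90.8. The reference was chosen to lack cycle genes, so the size of these ratios is set in part by the rule. Against the replicating barcodes, 330 of 6628 genes were higher (4.98%) and 35 lower (0.528%), with a median ratio of 1.06. The same 75 mitosis genes had a median ratio of 9.27 there, and 73 of them were higher. Replicating barcodes were chosen to have more replication than mitosis UMIs, so the rule sets part of these ratios too.

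**Figure D3:**
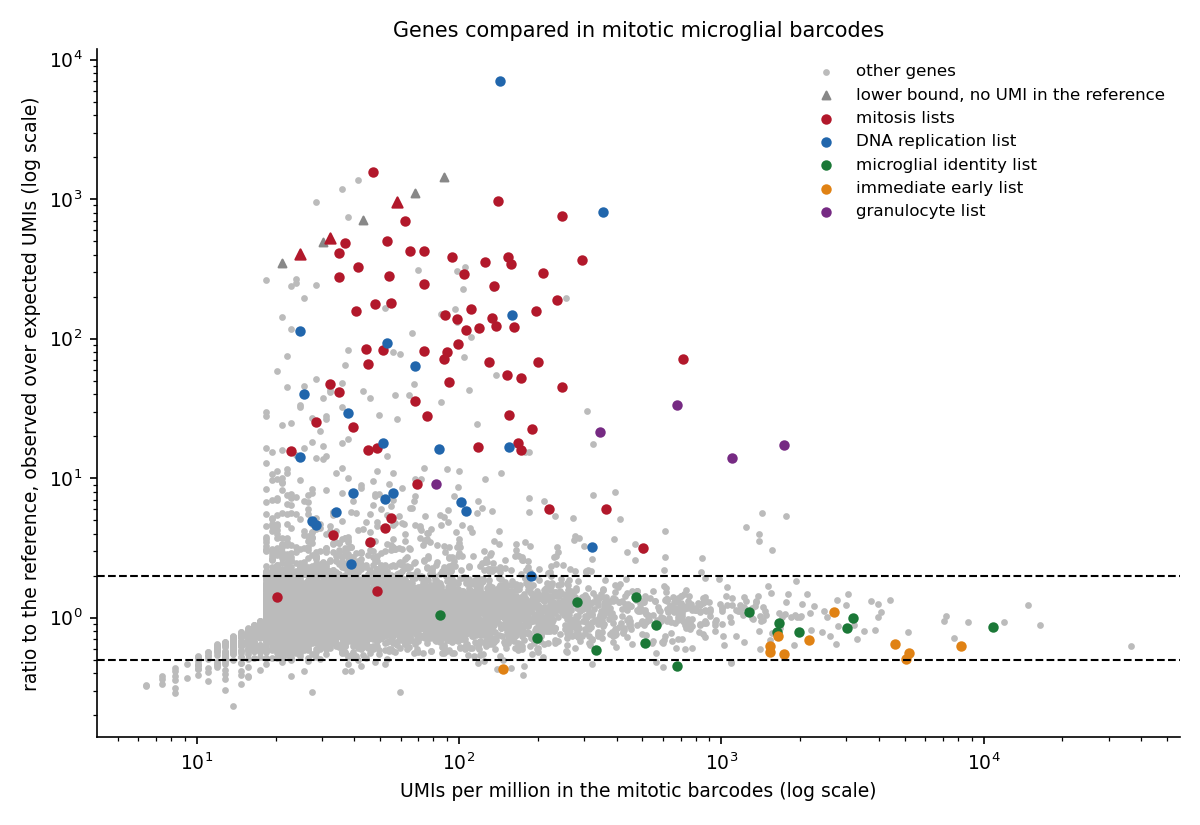
Ratio to the reference (vertical, log scale) against level in the 237 mitotic barcodes in CPM (horizontal, log scale), 1 point per gene compared, with lists of genes in color and triangles for lower bounds where the reference had no UMI. Dashed lines mark 2-fold. Mitosis genes spread over ratios from 1.40 to above 1000, whereas microglial identity genes lay between 0.451 and 1.40.

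Of the cyclins, their kinase and its partners, 8 of 8 genes were higher (median ratio 96.6). Ccnb1 (cyclin B1, chr13:100778650-100786570) had 328, 155, 153, 101 and 128 CPM in mitotic barcodes of suffixes 1, 2, 4, 5 and 6, against 0.301, 0.245, 0.578, 0.350 and 0.348 CPM in the reference. All mitotic values lay above all reference values, with a ratio of 382 (232 to 672). Ccna2 (cyclin A2) had 210, 163, 115, 133 and 150 CPM against 0.232 CPM or less in each suffix of the reference, with 5 reference UMIs in all and a ratio of 972 (408 to 3036). Cdk1 had a ratio of 52.5 (41.9 to 66.0), and Cks2, a small subunit of the kinase, one of 6.02 (5.41 to 6.68). Cdc25c, the phosphatase that activates Cdk1, had 27 UMIs and none in the reference, and was at least 406-fold higher when the reference was set to 3 UMIs over the group.

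Mitotic kinases were higher in 10 of 10 genes (median ratio 339.5). Plk1 (polo-like kinase, chr7:122159439-122169873) had 228, 118, 130, 112 and 102 CPM against 0.200, 0.245, 0.289, 0.875 and 0.232 CPM, with a ratio of 352 (206 to 647). The Aurora kinases Aurka (spindle poles) and Aurkb (chromosomal passenger complex) had ratios of 90.8 and 122, and Bub1b of the spindle checkpoint one of 697 (285 to 2215, from 5 reference UMIs). Of the passenger complex all 3 partners of Aurkb were higher. Birc5 (survivin, chr11:117849251-117855743) had 465, 340, 248, 235 and 314 CPM against 0.200, 0.0817, 0.578, 0.875 and 1.74 CPM, a ratio of 366 (247 to 565), and Cdca8 and Incenp had ratios of 190 and 16.6. Groups did not overlap in any suffix for Plk1 or Birc5.

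For exit from mitosis, 7 of 8 genes of the anaphase-promoting complex and of cohesion control were higher (median ratio 49.7). Ube2c, the ubiquitin-conjugating enzyme of the complex, had 264, 126, 156, 160 and 146 CPM against 0.200, 0.163, 0.723, 0.700 and 0.232 CPM, with a ratio of 345 (207 to 618). Pttg1 (securin, which holds back separase) had a ratio of 45.0 and Ube2s, which extends ubiquitin chains, one of 3.16. Espl1, which encodes separase, had 22 UMIs and a ratio of 1.40 (0.870 to 2.13), and was not called.

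The machinery that moves chromosomes was higher almost throughout. Kinesin motors were higher in 10 of 10 genes compared of 12 (median ratio 156), among them Kif23, a motor of the central spindle, at 296 (207 to 436). Kinetochore genes were higher in 14 of 14 compared of 15 (median 69.8), with Cenpf at 68.1, Cenpe at 120 and Ndc80, which binds microtubules, at 383 (222 to 710). Condensin subunits were higher in 7 of 7 (median 22.4), with Smc4 at 22.4 (18.9 to 26.6), and Ncapg, with 1 reference UMI, at 1556 (267 to 62668 by counting). Spindle factors were higher in 9 of 10 compared of 11 (median 98.6), and Numa1 at 1.57 (1.17 to 2.06) was not. Stmn1, which destabilizes microtubules, had 1084, 902, 611, 544 and 734 CPM against 10.4, 9.56, 12.0, 9.27 and 7.88 CPM, with a ratio of 71.6 (63.8 to 80.4), and was seen in 86.5% of mitotic barcodes. Cytokinesis genes were higher in 5 of 5 (median 138), with Racgap1 of the central spindle at 158 and the kinase Cit at 138.

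**Figure D4:**
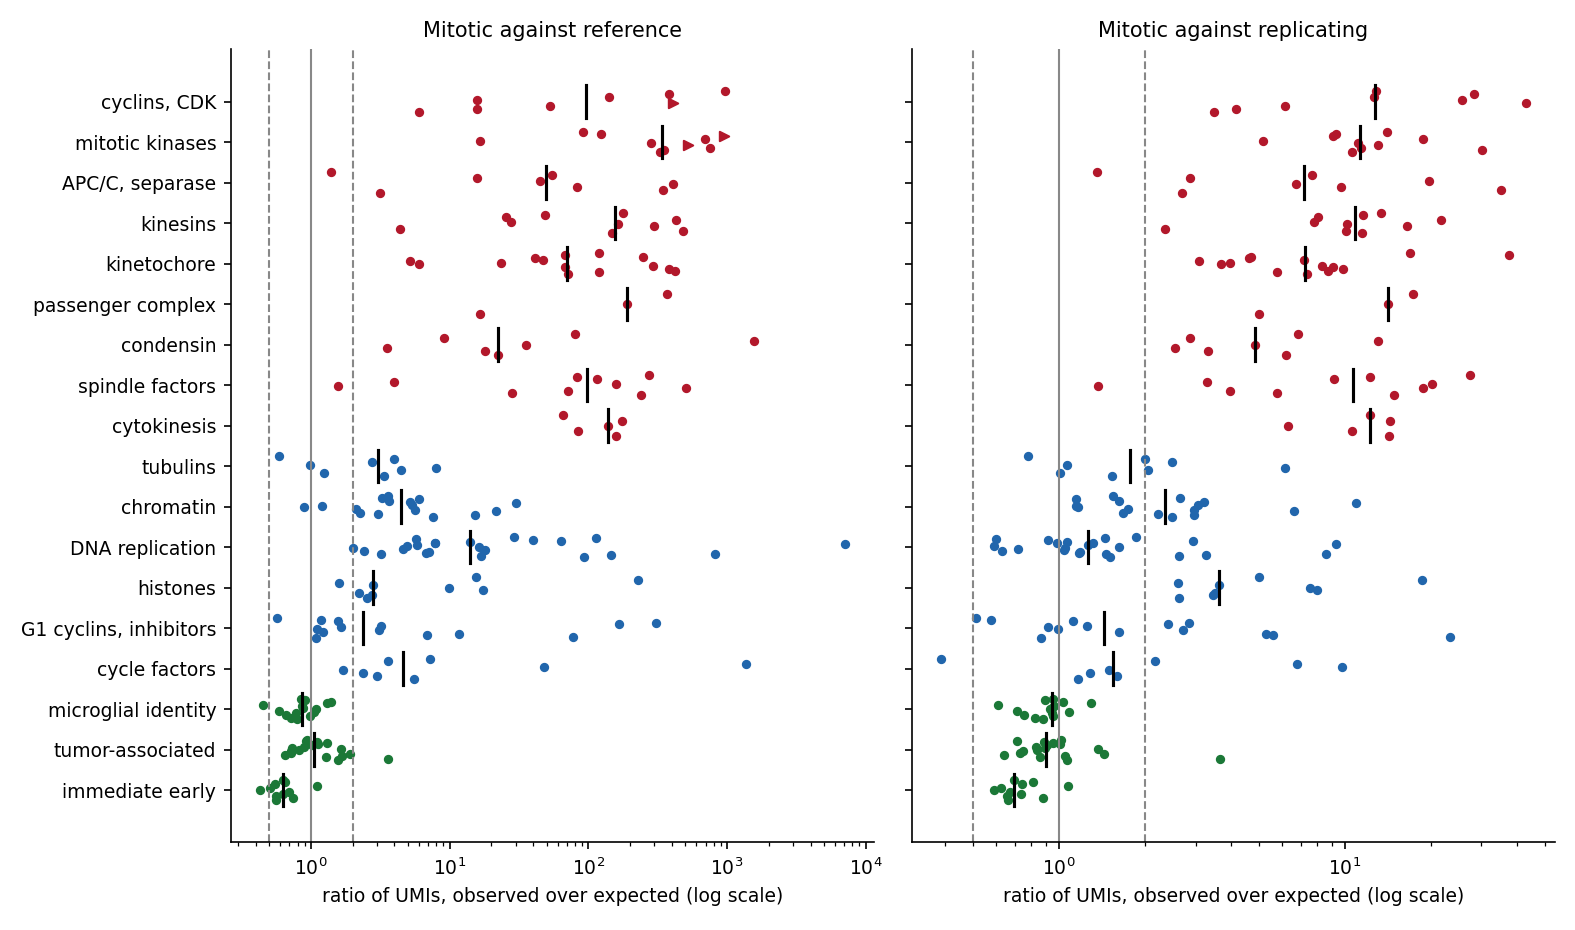
Ratios by group of genes (1 point per gene compared, log scale), against the reference on the left and against replicating barcodes on the right. Black bars are medians, arrowheads are lower bounds and dashed lines mark 2-fold. Medians of the mitosis groups were between 22.4 and 339.5 on the left and between 4.84 and 14.1 on the right.

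Tubulins and chromatin proteins, which are present in all cells, were higher to a lesser degree. Of the tubulins 5 of 8 compared were higher, with Tubb4b at 7.93 (7.14 to 8.80), Tubb5 at 4.44 and Tuba1b at 3.99, whereas Tuba1a had a ratio of 0.586 (0.504 to 0.678) and was below 1 in all 5 suffixes. Of the chromatin list 14 of 16 were higher (median ratio 4.43). H2afz (histone H2A.Z) had 2013, 2099, 1704, 1479 and 1921 CPM against 311, 327, 335, 298 and 352 CPM, with a ratio of 5.40 (5.14 to 5.66), and these groups did not overlap. H2afx (a histone that marks DNA breaks) had a ratio of 30.1 and the DNA-bending protein Hmgb2 one of 5.60, while the histones of all phases H3f3a and H3f3b had ratios of 1.21 and 0.890. Of the replication-dependent histones, whose transcripts mostly lack a poly(A) tail and are then caught poorly by this assay, 7 of 9 compared were higher than in the reference and 8 of 9 higher than in replicating barcodes (median ratios 2.82 and 3.61). Hist1h1b, a linker histone, was at 228 (133 to 421) against the reference and at 18.6 against replicating barcodes. Histone gene copies are similar in sequence, so reads may be split between them.

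Genes of DNA replication outside the rule were higher too. All 23 compared of 24 were at least 2-fold above the reference (median ratio 14.1), and 5 of 23 were above replicating barcodes (median 1.26). Rrm2, a subunit of ribonucleotide reductase, had a ratio of 813 (494 to 1436) to the reference and 8.56 to replicating barcodes. Esco2, which acetylates cohesin, had 156 UMIs in mitotic barcodes and 2 in the reference, a ratio of 7074 (1926 to 58925 by counting), and was 9.30-fold above replicating barcodes. Pcna, the sliding clamp of DNA polymerase, lay on the limit at 2.00 (1.73 to 2.31). The values of this paragraph rest on part of the mitotic barcodes, as the next comparison shows. In mitotic barcodes with no replication UMI, Pcna, Rfc3 and Slbp fell below the reference, with values given in the last section.

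The mitotic barcodes were divided by their UMIs on the 10 replication genes, a measure of the rule, so the division is a description. With none were 87 barcodes (median depth 3233 UMIs), with 1 or 2 were 55 (3007 UMIs) and with 3 or more were 95 (5036 UMIs). The 24 replication genes outside the rule summed to 285, 985 and 4076 CPM in these sets, against 1317 CPM in replicating barcodes. Rrm2 followed at 12.1, 168 and 676 CPM, Esco2 at 3.03, 19.5 and 299 CPM, and Ccne2 (cyclin E2, which opens replication) at 0, 11.7 and 108 CPM. The sum in barcodes with no replication UMI was close to the 307 CPM expected from the reference, though Rrm2 there was still above its reference levels of 0.163 to 0.580 CPM. Top2a is a mitosis gene of the rule, which asked for no fewer mitosis than replication UMIs and so set part of its values. It had 72.8, 195 and 928 CPM and the kinase Pbk, outside the rule, 39.4, 152 and 433 CPM. Cdc20 showed the reverse, with 300.2, 270 and 160 CPM, and Cenpa 400.3, 313 and 311 CPM. The 79 mitosis genes outside the rule summed to 4388, 6180 and 12927 CPM, all above the 1368 CPM of replicating barcodes. Depth differed between the sets and its part was not tested.

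In the direct comparison with replicating barcodes, among genes outside the rule of at least 50 CPM in mitotic barcodes, ratios were highest for Cenpf at 37.3 (26.7 to 53.2), Ube2c at 35.2, Plk1 at 30.2, Ccnb1 at 28.2, the noncoding RNA Lockd at 25.5, Pimreg at 24.6, the phosphatase Cdkn3 at 23.3, the kinesin Kif20a at 21.6, the kinetochore protein Knstrn at 20.9 and Pttg1 at 19.6. Their reference ratios were not in the same order, since Cenpf was at 68.1 and Pimreg at no less than 1429. Cdc25c, at 24.8 CPM and with 5 UMIs in replicating barcodes, was at 42.8 (16.2 to 142). Genes of the start of replication were also among those called higher, with Ccne1 at 2.84 (2.25 to 3.58) and Ccne2 at 2.40 (1.74 to 3.26). In mitotic barcodes with no replication UMI, Ccne1 was at 3.03 CPM and Ccne2 at 0, below the 33.3 and 21.3 CPM of replicating barcodes. With 3 or more replication UMIs they were at 184 and 108 CPM. At the other end, Myc had a ratio of 0.337 (0.253 to 0.439), the replication activator E2f1 0.386 (0.239 to 0.593) and Ccnd1 (cyclin D1, of the entry into the cycle) 0.511. E2f1 was 7.26-fold above the reference in mitotic barcodes and 18.3-fold above it in replicating ones, at 20.2 and 51.3 CPM, and had no UMI in the 87 mitotic barcodes without replication UMIs. Snx29, Cables1, Cdca7, Ppan, Ccr6 and Tanc2 were also called lower, between 0.405 for Snx29 and 0.490 for Tanc2. Ccnd1 and Fscn1, at 0.525, were below 1 in all 5 suffixes but short of 2-fold.

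Regulators of the entry into the cycle were mixed. Of 14 cyclins of this phase, their kinases and inhibitors, 7 were higher than in the reference (median ratio 2.36) and none was called lower, with Ccnd1 at 0.573 (0.457 to 0.709). Ccne1 (cyclin E1) had a ratio of 307 (175 to 580). Inhibitors were among the higher genes. Cdkn1a (p21, chr17:29090976-29100727), which blocks cyclin-dependent kinases, had 2842, 1826, 1052, 1644 and 1508 CPM in mitotic barcodes of suffixes 1, 2, 4, 5 and 6, against 565, 524, 503, 562 and 450 CPM in the reference. The groups did not overlap, the ratio was 3.07 (2.92 to 3.23), and Cdkn1a was seen in 84.0% of mitotic barcodes. In replicating barcodes it was at 579 CPM, a ratio of 1.14 to the reference. Cdkn2c (p18) and Cdkn2d (p19), which block the kinases of cyclin D, had ratios of 11.6 and 6.83, whereas Cdkn1b (p27) had 1.22 (0.901 to 1.62). Of 8 transcription factors of the cycle compared 7 were higher, with Foxm1, an activator of mitosis genes, at 48.0 (29.0 to 79.9) and E2f8, a repressor of the E2F family with 1 reference UMI, at 1373 (234 to 55435 by counting). In the 87 mitotic barcodes without replication UMIs the E2f1 ratio was 0, the Lin54 ratio 0.753 and the Lin9 ratio 0.843.

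Over all genes of at least 50 CPM, the highest ratios outside the groups above were those of Pimreg, which had 95 UMIs and none in the reference and was at least 1429-fold higher, and of Neil3, a DNA glycosylase, which had 74 UMIs and was at least 1113-fold higher. Both bounds set the reference to 3 UMIs over the group.

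**Figure D5:**
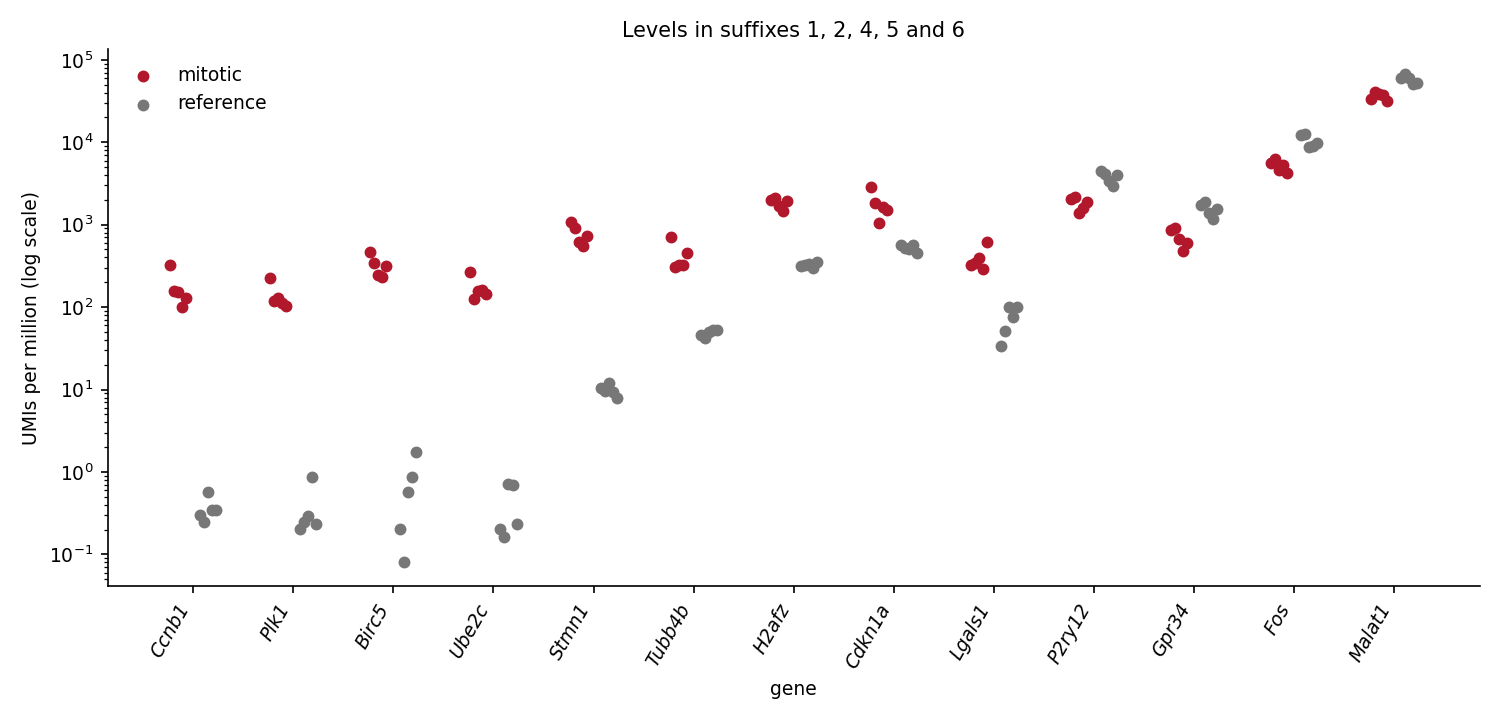
Level in CPM (log scale) of 13 genes in mitotic and reference barcodes of suffixes 1, 2, 4, 5 and 6, 1 point per suffix in that order within each cluster. Mitosis genes, Cdkn1a and Lgals1 were higher and P2ry12, Gpr34, Fos and Malat1 lower in mitotic barcodes, with no overlap.

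The rule required UMIs on 6 microglial genes, so a microglial profile was fixed by the choice of barcodes, and other microglial genes are described here. All 15 microglial genes outside the rule were seen, each mitotic barcode had at least 10 UMIs on them, and they summed to 26792 CPM against 32332 CPM in the reference. Of these 15 genes 14 were within 2-fold (median ratio 0.863). Fcrls and Golm1 were above the reference at 1.40 and 1.30, and the receptor gene Csf1r was at 0.849. Gpr34, a receptor for lysophosphatidylserine (chrX:13632089-13640858), was called lower. It had 865, 909, 666, 486 and 599 CPM against 1736, 1899, 1400, 1170 and 1549 CPM, with no overlap and a ratio of 0.451 (0.419 to 0.485). With the reference matched in bins of 1000 UMIs per barcode it was at 0.568, and against replicating barcodes at 0.613, so neither was past 2-fold. P2ry12, a purine receptor which is part of the rule, had 2032, 2195, 1389, 1580 and 1899 CPM against 4510, 4155, 3392, 2938 and 3959 CPM (ratio 0.481, and 0.591 in bins of depth). P2ry13 and Siglech were at 0.584 and 0.657.

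Immediate early genes, which respond to stimuli within minutes and also to the dissociation of tissue, were below 1 in 10 of 11 genes (median ratio 0.626), and 1 of them was called lower, beside 0.968% of all genes compared. Without shared barcodes 2 of 11 were called lower, beside 1.01% of all genes compared. When barcodes with markers of other cell types were left out as well, 4 of 11 were called lower, beside 2.00%. This last count asked for the same direction in only 3 suffixes, so it is not on the same footing. The 1 gene was Fosb at 0.431 (0.366 to 0.503), which was at 0.527 in bins of depth. Fos had 5575, 6216, 4589, 5231 and 4295 CPM against 12286, 12557, 8773, 8907 and 9817 CPM, with no overlap and a ratio of 0.506 (0.493 to 0.520), just short of 2-fold. Fos was at 0.483 without shared barcodes and at 0.589 in bins of depth. Junb was at 0.556 and Jun at 0.630, whereas Egr1 was at 1.10. Malat1, a nuclear noncoding RNA, was at 0.631 in mitotic barcodes. Against replicating barcodes none of the 11 immediate early genes was called (median ratio 0.697).

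Among all genes of at least 50 CPM in the reference, the lowest ratios included those of Snx29 at 0.293, Ttr at 0.295, Angptl7 at 0.382, Txnip (which binds thioredoxin) at 0.386, Cables1 at 0.413, N4bp2l1 at 0.415 and Sox4 at 0.430. Ttr is a choroid plexus transcript, and its ratio was 0.317 without shared barcodes. Fscn1 (which bundles actin), Glul (glutamine synthetase) and Mlph were at 0.437, 0.442 and 0.448. In bins of depth Fscn1, Glul and Sox4 were at 0.506, 0.517 and 0.526, short of 2-fold. Cebpa, a transcription factor of the myeloid lineage, was at 0.451 (seen in 41.8% of mitotic barcodes).

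Of 18 genes of tumor-associated microglia compared, 1 was called higher (median ratio 1.06), beside 9.52% of all genes compared, and shares of this size in the short lists that follow are not results about these lists. This was Spp1 (osteopontin), with 319, 606, 1995, 2141 and 1088 CPM against 93.5, 237, 570, 533 and 308 CPM and a ratio of 3.57 (3.38 to 3.76). The ranges of Spp1 overlapped between suffixes, though within each suffix the mitotic value was the higher one. Spp1 was at 2.17 and no longer called without shared barcodes and barcodes with markers of other types. Apoe was at 0.935 and the lysosomal protease Ctsd at 0.720. None of 7 interferon genes (median 1.56), of 4 class II antigen presentation genes (median 1.57) or of 12 mitochondrially encoded genes (median 1.28) was called. In bins of depth all 4 class II genes were below 1, with Cd74 at 0.747, H2-Aa at 0.876, H2-Ab1 at 0.759 and H2-Eb1 at 0.940. Of 81 ribosomal protein genes 1 was called higher (median 1.18), of 10 glycolysis genes 1 (Gapdh, at 2.21; median 1.47), and of 7 growth factor genes Myc was called lower at 0.469 (median 0.849). In bins of depth Gapdh was at 1.89 and Myc at 0.508, both short of 2-fold.

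Summed levels of markers of other cell types differed from the reference in both directions, higher for granulocytes and lower for choroid plexus. At least 2 UMIs on such markers, which cover dendritic, NK, T and B cells, granulocytes, border macrophages, choroid plexus and neural and vascular cells but not recruited macrophages, were found in 61 mitotic barcodes (25.7%), against 16.5% of the reference and 21.5% of replicating barcodes. The 5 granulocyte genes summed to 3938 CPM against 213 CPM in the reference. All 5 ratios were above 1, but none of the genes was called higher. Only 6 mitotic barcodes (2.53%) had 2 or more of these UMIs, and 10 barcodes held 99.98% of them. By suffix they summed to 0, 20784, 559, 3299 and 2396 CPM in suffixes 1, 2, 4, 5 and 6, and 6 barcodes had 10 or more of these UMIs, 2 of them in suffix 2. The most abundant, S100a8, had 1883 UMIs, with 0, 9742, 320, 923 and 1026 CPM, so 1 library carried most of it. The 8 NK, T and B cell genes summed to 339 CPM against 31.4 CPM, with Gzma the most abundant (202 UMIs), 12 barcodes with 2 or more UMIs and the B cell gene Ms4a1 at 0. None of the 3 compared was called higher. Dendritic genes were at 1.84 CPM with Cd209a, Zbtb46 and Clec9a at 0, border macrophage genes at 14.7 CPM with Lyve1 and Cd163 at 0 and Mrc1 the most abundant (7 UMIs), and choroid plexus genes at 60.7 CPM against 231 CPM, with Clu and Igfbp2 at 0. Of the 66 choroid plexus UMIs in mitotic barcodes 65 were on Ttr. The share of barcodes with 2 or more choroid plexus UMIs went the other way, at 4.64% of mitotic and 2.67% of reference barcodes. With 10 or more there were 0 mitotic and 56 reference barcodes (0.395%). Neural and vascular genes were at 92.9 CPM against 125 CPM, with Slc1a3 the most abundant (88 UMIs) and 5 of 9 at 0. Values without the barcodes that carry these markers are given in the next paragraphs.

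Genes of recruited macrophages were higher in 5 of 8 compared of 10 (median ratio 2.74), beside 9.52% of all genes compared. In 112 mitotic barcodes (47.3%) there were 2 or more UMIs on them, against 8.09% of the reference and 19.5% of replicating barcodes. These shares were not matched for depth, and 447 of the 930 UMIs of the list in mitotic barcodes were on Lgals1. The list summed to 856 CPM against 181 CPM in the reference, and all 10 of its genes were seen. Lgals1 (galectin-1), the most abundant with 447 UMIs, had 328, 340, 389, 288 and 625 CPM against 34.2, 51.9, 100.3, 76.8 and 99.1 CPM, with no overlap and a ratio of 5.07 (4.58 to 5.60). Plac8 was at 4.59, Vim (vimentin) at 4.05, Tgfbi at 2.75 and Ifitm2 at 2.45, while Ccr2, the chemokine receptor of monocytes, was at 1.29 (0.780 to 2.01) with 20 UMIs. In bins of depth Lgals1 was at 3.27, but Plac8 at 1.71, Vim at 1.36, Tgfbi at 1.46 and Ifitm2 at 1.14 were under 2-fold, and Ccr2 at 0.492, Ly6c2 at 0.768 and S100a6 at 0.960 were below 1. Without shared barcodes and barcodes with markers of other cell types, 141 mitotic barcodes remained and Lgals1 was at 5.75 (4.99 to 6.60). Over the 3 suffixes used there, 4 of 5 genes compared were higher, beside 12.0% of all genes compared.

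The mitosis genes were as high without those barcodes. Among the 141, the median ratio to the reference was 128 for cyclins and their kinase (6 of 6 higher), 369 for mitotic kinases (10 of 10), 183 for kinesins (10 of 10), 88.4 for kinetochore genes (13 of 13) and 177 for cytokinesis genes (5 of 5). In all, 554 of 4602 genes were higher (12.0%) and 92 lower (2.00%), counted over the 3 suffixes with at least 20 such barcodes, and of the genes called over all 237 barcodes 437 higher and 35 lower ones were kept. Cdkn1a was at 3.74 and Gpr34 at 0.468 in this set.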

How the data were processed

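CD45+ cells from 6 mice were profiled by the authors with 10x Chromium 3′ chemistry, and the submitters' processing notes name Cell Ranger 3.1 and the mm10 genome. The deposited aggregated matrix holds raw UMI counts, not normalized, for 31053 genes in 40411 barcodes (105560763 UMIs, 9745192 to 24393841 per suffix). Limits on genes and mitochondrial UMIs followed the authors, except that barcodes of over 2500 genes, which they left out, were kept. No doublet caller was run.

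The members and gene lists were chosen with earlier results of these data known. Expected UMIs were summed over suffixes from the reference, and a gene was compared with at least 20 observed or expected UMIs. A call needed a 2-fold ratio and the same direction in every suffix with 20 or more members. Intervals are exact Poisson or Clopper-Pearson at 95% and do not include variation between mice. Named genes were those of the rule, of each list up to 4 with the most UMIs and up to 3 with the highest and lowest ratios, and over all genes of 50 CPM or more the 15 highest and 15 lowest ratios (10 against replicating barcodes); other list members were named after their values were seen. Python 3.11.15, numpy 2.4.6, scipy 1.17.1 and pandas 2.3.3 were used, and the code was tested on simulated data. Alternatives without shared barcodes, other-type markers or both were chosen after seeing the data. Some genes that the naming rule covers are not reported here.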

Additional observations from a re-analysis of the deposited data

Results flagged for a closer look

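Among 34 list sums compared over the 5 suffixes with at least 20 mitotic barcodes, 6 had 1 suffix far from the others, and chance alone flags about 1 in 20. Suffix 1 stood highest for the anaphase-promoting complex and checkpoint genes at 2004 CPM (1095 to 1316 CPM in the others), for kinesins at 1631 CPM (657 to 880 CPM) and for tubulins at 4947 CPM (3272 to 3616 CPM). Class II antigen presentation genes stood highest in suffix 5 at 1388 CPM (118 to 435 CPM). Recruited macrophage genes stood highest in suffix 6 at 1501 CPM (483 to 750 CPM), and granulocyte genes in suffix 2 at 20784 CPM (0 to 3299 CPM). Their causes were not tested.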

How the results depend on the processing

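No paired analysis was possible because no result here comes from a test between groups. The share of mitotic barcodes (0.616%) was 0.534% with at most 2500 genes, 0.527% with over 5% microglial UMIs, 0.418% with at least 5 mitosis UMIs, 0.790% with at least 2, 0.226% (87 barcodes) with no replication UMI, 0.421% without Top2a and Mki67, 0.499% with members of at least 2000 UMIs, 0.523% without barcodes with markers of other types and 0.805% without shared barcodes. Without both of the latter 141 barcodes remained. With 1 suffix left out at a time the number was 163 to 230 barcodes, with shares of 0.501 to 0.722%, 569 to 624 genes higher and 56 to 81 lower. The number higher (629 of 6609 genes compared) was 208 of 2777 with no replication UMI. It was 401 of 3391 on a random part of the UMIs and 347 of 3564 with a minimum of 50 UMIs per gene. The number lower (64 of 6609) was 101 of 5216 with at most 2500 genes and 34 of 6440 in bins of depth. It was 28 of 3564 with a minimum of 50 UMIs per gene and 187 of 10021 with a minimum of 5 per gene. With no replication UMI 7 genes fell to or below the reference, namely Ccne2 (0), E2f1 (0), Lin54 (0.753), Lin9 (0.843), Pcna (0.581), Rfc3 (0.755) and the Slbp ratio (0.567). Ttr was at 1.34 without barcodes with markers of other types and at 1.25 without shared barcodes as well, but Ttr is itself one of these markers, so that barcodes were left out by their own Ttr count and the values say nothing of its direction. Without shared barcodes alone Ttr was at 0.317. The causes were not tested. Of the remaining gene ratios under alternatives, 3462 moved by less than counting error and 897 by more.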
